A study of Mus musculus with 12 samples.

Results

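Kcnj5 and 8 genes for calcium and potassium channels or their regulators were examined in PreMegEs, the bipotent bone marrow cells that give rise to megakaryocytes and erythrocytes. The 9 genes, Kcnj5, Kcnn4, Trpc6, Orai1, Stim1, Piezo1, Itpr1, Itpr2 and Itpr3, were taken by symbol from a table of read counts over 41128 genes. Kcnj5 was selected on its level in P2+ PreMegEs, where it was among the genes with the largest increase, so its values in the comparisons that hold P2+ or P2- cells are given as a description without a test. All 9 genes passed the filter on low counts in every comparison, and none was below 2.02 CPM in any library (CPM, counts scaled to library size).

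RNA-Seq was carried out on 4 groups of 3 libraries made from sorted cells, with the lines backcrossed to C57BL/6. By the study's methods each library pooled 3 mice, 12 to 16 weeks old, although the KO libraries are not described there. The WT group came from wild type mice. The P2- and P2+ groups came from Runx1 P1-GFP::P2-hCD4/+ mice, in which 1 Runx1 allele drives GFP from the distal promoter P1 and a truncated human CD4 from the proximal promoter P2. Both fractions were P1+ and were separated by hCD4 on the surface, so that both carry the reporter on 1 allele and differ in P2 activity. The paper speaks of Runx1 haploinsufficiency in these mice. Against WT, each fraction therefore differs both in P2 activity and by the reporter allele, which cannot be told apart. The KO group came from mice labelled RUNX1C knockout; in the study these carry GFP in place of the P1-directed RUNX1C isoform, with P2 left intact. Whether the KO libraries were prepared and sequenced with the others is not stated, so a batch and the knockout cannot be told apart. The comparisons ask how PreMegEs with an active P2 promoter differ from those without, where WT cells stand, and what absence of RUNX1C changes.

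The libraries held between 10726098 and 14445026 counts. Runx1, counted over transcripts of both promoters together, had 369 ± 15.6 CPM (scaled by TMM; SD, n = 3) in WT, 211 ± 7.41 in P2-, 631 ± 24.2 in P2+ and 359.8 ± 20.4 in KO cells. Its total separated the fractions but did not separate KO from WT (log2 fold change -0.05, standard error 0.06), so this count does not check the RUNX1C label. Of the genes behind the PreMegE gate, Kit was at 813 to 1087 CPM on average in the 4 groups and Slamf1 (CD150) at 36.0 to 59.1, while Ly6a (Sca1) stayed between 1.14 and 3.31. Itga2b (CD41) and Eng (Endoglin), whose products the sort excluded, had 51.0 to 282 and 104 to 128 CPM of transcript. The summed level of 11 megakaryocyte markers was 605 to 695 CPM in the WT libraries, 150.2 to 209 in P2-, 919 to 1389 in P2+ and 372 to 403 in KO. That of 13 erythroid markers was 3323 to 3823 in WT, 5866 to 6667 in P2-, 1305 to 1491 in P2+ and 5631 to 6327 in KO. Aqp1 was the most abundant of these. In P2+ against P2-, 9 of 11 tested fell and 0 rose, beside 17.0% and 20.1% over all genes. Hbb-bs (11.8 ± 6.78 CPM in P2-, 12.3 ± 11.9 in P2+) and Hbb-bt (1.98 ± 1.62 and 3.65 ± 3.16) were not lower in P2+. Stem cell markers summed to 446 to 494 CPM in WT, 218 to 254 in P2-, 707 to 749.5 in P2+ and 271 to 315 in KO, and neutrophil and monocyte markers to 92.1 to 221, 31.5 to 66.3, 145 to 302 and 44.3 to 84.4 with Cebpe at the floor. Mast cell and basophil markers summed to 27.9 to 47.9, 24.5 to 28.3, 84.3 to 137 and 47.3 to 64.2 with Cma1 and Tpsb2 at the floor of 3 counts, and lymphoid markers to 13.8 to 24.9, 3.74 to 10.8, 9.07 to 68.2 and 9.28 to 14.3 in the same order. These sums move with several of the channel genes below, and their part in those results was not tested. In pooled cells a change in the share of cells that express a gene and a change in RNA per cell cannot be told apart. Replicate 2 of P2- and of P2+ stood apart by 10 immediate early genes, which summed to 12464 and 8366 CPM there, against 156 to 1171 in WT and KO libraries, and the calls of the 9 genes, the gene lists and the neighbours of Kcnj5 were recomputed without them.

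Ion channels set the membrane potential and the calcium signals of blood cells. In megakaryocytes and platelets, G protein-coupled receptors activate phospholipase C, the IP3 it makes opens IP3 receptors on the endoplasmic reticulum, and the emptied store is sensed by STIM1, which opens ORAI1 in the plasma membrane. TRPC6 adds a diacylglycerol-operated entry path. In red cells, stretch opens PIEZO1, the calcium that enters opens the potassium channel KCNN4 (the Gardos channel), and potassium and water leave the cell. KCNJ5 (GIRK4) is a G protein-gated inward rectifier potassium channel subunit.

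Promoter sequence was taken from RefSeq (GRCm38.p6), which held a window of 250 bases before and 50 after the start for 8 of the 9 genes, all but Itpr1. The windows of Kcnj5 and Trpc6, whose transcripts were highest in P2+, and of Kcnn4, whose transcript was lowest there, are shown as examples of members that moved together or apart. Only bases ahead of the annotated start are printed, on the strand of the gene. Capitals mark the letters TGTGGT or their complement (the RUNX core) and AGGAAG or its complement (an ETS core), searched on both strands.
Kcnj5, chr9:32344351-32344594, minus strand: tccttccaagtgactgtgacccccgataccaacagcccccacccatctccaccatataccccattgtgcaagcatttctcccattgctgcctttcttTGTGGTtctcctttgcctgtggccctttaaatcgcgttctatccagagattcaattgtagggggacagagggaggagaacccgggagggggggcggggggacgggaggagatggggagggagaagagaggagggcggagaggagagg
Trpc6, chr9:8543892-8544141, plus strand: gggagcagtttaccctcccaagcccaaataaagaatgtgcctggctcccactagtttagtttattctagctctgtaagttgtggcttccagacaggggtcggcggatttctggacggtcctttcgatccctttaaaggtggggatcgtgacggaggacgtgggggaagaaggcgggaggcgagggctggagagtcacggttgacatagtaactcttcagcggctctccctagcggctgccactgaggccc
Kcnn4, chr7:24370013-24370262, plus strand: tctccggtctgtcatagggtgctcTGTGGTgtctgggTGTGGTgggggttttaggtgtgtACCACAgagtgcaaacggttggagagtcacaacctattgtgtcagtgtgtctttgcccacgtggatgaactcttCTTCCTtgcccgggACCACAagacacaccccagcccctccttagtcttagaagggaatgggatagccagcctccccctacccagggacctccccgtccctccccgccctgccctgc
The Kcnj5 window holds 1 TGTGGT, 153 bases before the RefSeq start. The Kcnn4 window holds 4, at 226, 213, 190 and 102 bases before the start, the last pair on the opposite strand, and 1 ETS core on the opposite strand at 116 bases. The Trpc6 window has no match to these letters, nor to the GATA core AGATAA, which none of the 8 windows holds. Of the windows not shown, Orai1 and Itpr3 hold an ETS core but no RUNX core. Stim1, Itpr2 and Piezo1, whose transcript was also lowest in P2+, hold neither. Of 32851 mouse promoter windows, 16.8% hold TGTGGT on either strand, 0.0457% hold it at least 4 times, 35.4% hold AGGAAG and 11.2% AGATAA. A match is a description of the letters in the window and not a binding site.

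Kcnj5 (ENSMUSG00000032034; chromosome 9, 32314707 to 32344350, minus strand; GRCm38, as for all genes here) had the widest fold range of the 9 genes. Its CPM were 33.6, 42.9 and 38.9 in WT replicates 1 to 3, 3.90, 3.75 and 9.03 in P2-, 82.3, 85.7 and 109.7 in P2+, and 22.0, 30.9 and 20.9 in KO. The 4 groups did not overlap, with P2- lowest, then KO, WT and P2+. The counts behind these values were 39 to 128 in P2- and 983 to 1438 in P2+ libraries. The level in P2+ was 16.5-fold that in P2- (log2 4.04, standard error 0.31), which was the 17th largest of 12836 genes tested in the contrast that chose it. Within replicate pairs the ratio was 21.1, 22.9 and 12.1, the last with the highest P2- library, and leaving that library out took the log2 fold change to 4.60. Against WT, Kcnj5 was 2.42-fold higher in P2+ (log2 1.27, standard error 0.13) and 6.79-fold lower in P2- (log2 -2.76, standard error 0.29). The excess of WT libraries over the P2- mean was 37.8% ± 5.36 (SD, n = 3) of the gap in CPM between P2- and P2+, and that of KO libraries 21.9% ± 6.28. On the log2 scale the same shares were 68.8% for WT and 52.9% for KO.

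**Figure D1:**
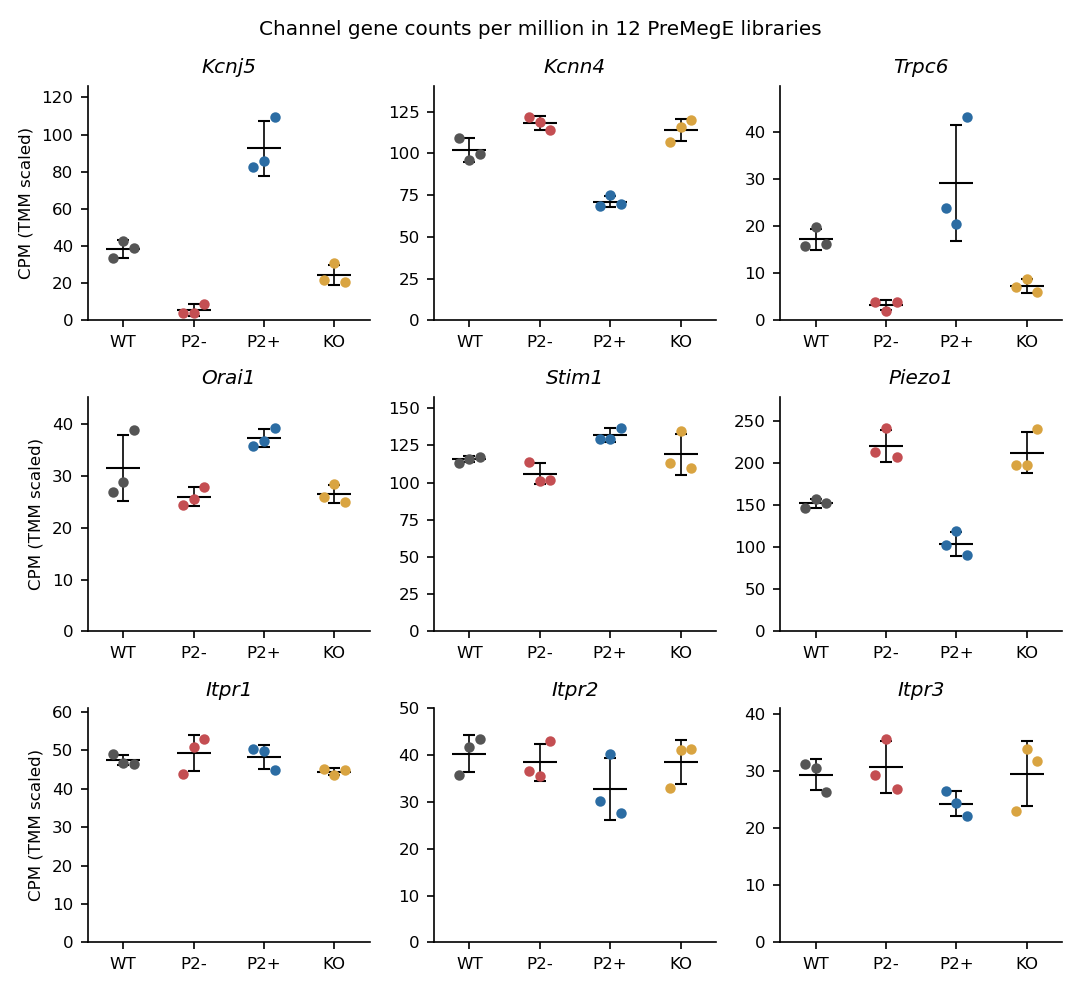
CPM (TMM scaled, vertical axis) of the 9 channel genes in each library, by group. Points are libraries in order of replicate number and bars show the mean and SD of 3. Kcnj5 and Trpc6 are lowest in P2- and highest in P2+, Piezo1 and Kcnn4 the reverse, and the Itpr genes overlap in most groups.

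The KO comparison was not used to choose Kcnj5. Kcnj5 fell in KO PreMegEs by 0.65 on the log2 scale (standard error 0.14, 1.57-fold, edgeR quasi-likelihood adjusted p = 4.03e-03), with each KO library below each WT library. The call was lost when all 12 libraries shared a fit (log2 fold change -0.64, adjusted p = 0.104 from edgeR), and the change is under the 2-fold minimum of the study; it was kept in each of the other alternatives. The megakaryocyte marker sum was also lower in KO than in WT libraries, as given above. Of 10 tested markers, 7 were lower and 1 was higher, beside 8.76% and 6.18% over all genes. Among the markers above 1 CPM, Ppbp alone had a higher mean in KO, at 15.8 ± 5.02 CPM (SD) against 9.73 ± 2.03 in WT.

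Trpc6, the receptor-operated cation channel (ENSMUSG00000031997; chromosome 9, 8544142 to 8680741, plus strand), showed the same order of groups. Its CPM were 15.7, 19.7 and 16.2 in WT, 3.98, 2.02 and 3.88 in P2-, 23.8, 20.4 and 43.2 in P2+, and 7.07, 8.81 and 6.01 in KO. No groups overlapped, and replicate 3 of P2+ stood above the other 2 P2+ libraries. Trpc6 rose 8.80-fold in P2+ against P2- (log2 3.14, standard error 0.35, edgeR quasi-likelihood adjusted p = 1.85e-04) on 21 to 55 counts in P2- libraries. Its ratio was 5.98, 10.1 and 11.1 in the 3 replicate pairs. Against WT it fell 5.13-fold in P2- (log2 -2.36, standard error 0.25, edgeR adjusted p = 1.97e-04) and 2.36-fold in KO (log2 -1.24, standard error 0.18, edgeR adjusted p = 1.26e-04). The difference between P2+ and WT (log2 0.77, standard error 0.25) did not pass the test (edgeR adjusted p = 0.0593). It passed without P2+ replicate 2 (log2 0.97, adjusted p = 6.64e-03), with DESeq2 (adjusted p = 8.03e-03), with the exact test of edgeR (adjusted p = 0.0285) and without the filter on low counts (adjusted p = 6.83e-03). Without P2+ replicate 3 the edgeR log2 fold change came to 0.37 (adjusted p = 0.182), so the size of this difference rests on that library.

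Per exonic length, Kcnj5 exceeded Trpc6 by a ratio of 2.43 ± 0.152 (SD, n = 3) in WT, 1.86 ± 0.739 in P2-, 3.68 ± 0.897 in P2+ and 3.64 ± 0.240 in KO. The ratio in KO, 3.36 to 3.79, did not overlap that in WT, 2.32 to 2.60. It was lowest in P2-, where both genes had few counts.

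Piezo1, the stretch-gated cation channel (ENSMUSG00000014444; chromosome 8, 122481698 to 122551329, minus strand), went the other way. Its CPM were 147, 157 and 153 in WT, 213, 242 and 207 in P2-, 103, 119 and 90.8 in P2+, and 198, 197 and 239.9 in KO. P2- and KO libraries overlapped each other and both lay above all WT libraries, which lay above all P2+ libraries. Piezo1 fell 2.10-fold in P2+ against P2- (log2 -1.07, standard error 0.11, edgeR adjusted p = 1.19e-04), with ratios of 0.485, 0.490 and 0.439 in the replicate pairs. Against WT it fell 1.46-fold in P2+ (log2 -0.54, standard error 0.10, edgeR adjusted p = 4.69e-03). It rose 1.45-fold in P2- (log2 0.53, standard error 0.08, edgeR adjusted p = 2.12e-03) and 1.38-fold in KO (log2 0.46, standard error 0.08, edgeR adjusted p = 3.47e-04). Piezo1 overlaps exons of Ctu2 on the opposite strand, and whether the counting used the strand is not stated. The erythroid marker sum given above was likewise higher in P2- and KO and lower in P2+.

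Kcnn4, the calcium-activated potassium channel of intermediate conductance (ENSMUSG00000054342; chromosome 7, 24370263 to 24386690, plus strand), had 109, 96.2 and 99.4 CPM in WT, 122, 119 and 114 in P2-, 68.7, 75.1 and 69.6 in P2+, and 107, 116 and 119.9 in KO. P2+ stood below the other 3 groups without overlap. Kcnn4 fell 1.64-fold in P2+ against P2- (log2 -0.72, standard error 0.07, edgeR adjusted p = 1.08e-04) and 1.42-fold against WT (log2 -0.51, standard error 0.08, edgeR adjusted p = 2.10e-03). Neither P2- (log2 0.22, edgeR adjusted p = 0.0844) nor KO (log2 0.16, edgeR adjusted p = 0.168) passed the test against WT, although all P2- libraries were above all WT libraries. With one potassium channel higher and the other lower, the ratio of Kcnj5 to Kcnn4 per exonic length was 1.42 ± 0.257 (SD, n = 3) in P2+, 0.417 ± 0.0764 in WT, 0.235 ± 0.0509 in KO and 0.0521 ± 0.0301 in P2-.

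The genes of store-operated entry differed between the fractions by less than 2-fold. Orai1, the plasma membrane pore (ENSMUSG00000049686; chromosome 5, 123015074 to 123030456, plus strand), had 26.9, 28.8 and 38.9 CPM in WT, 24.4, 25.6 and 27.9 in P2-, 35.8, 36.7 and 39.3 in P2+, and 25.9, 28.5 and 25.0 in KO. The fractions did not overlap, and WT replicate 3 lay with the P2+ libraries. Orai1 rose 1.45-fold in P2+ against P2- (log2 0.53, standard error 0.11, edgeR adjusted p = 4.30e-03), with ratios of 1.47, 1.43 and 1.41 in the pairs. It did not pass the test against WT in P2+ (log2 0.24, edgeR adjusted p = 0.285), P2- (log2 -0.28, edgeR adjusted p = 0.247) or KO (log2 -0.26, edgeR adjusted p = 0.226). Without WT replicate 3 these became 0.42, -0.10 and -0.08 (edgeR adjusted p = 0.0570, 0.673 and 0.742), so their sizes rest on that library; over all libraries left out in turn they ran from 0.14 to 0.42, -0.39 to -0.10 and -0.37 to -0.08. Orai1 overlaps Gm2479 on the opposite strand.

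Stim1, the calcium sensor of the endoplasmic reticulum (ENSMUSG00000030987; chromosome 7, 102267806 to 102437319, plus strand), had 113, 116 and 117 CPM in WT, 114, 101 and 102 in P2-, 129, 129 and 137 in P2+, and 113, 135 and 109.6 in KO. P2+ libraries were above all WT and P2- libraries, and KO replicate 2 lay with P2+. Stim1 rose 1.26-fold in P2+ against P2- (log2 0.34, standard error 0.07, edgeR adjusted p = 7.50e-03) and passed no test against WT, with log2 fold changes of 0.20, -0.13 and 0.03 in P2+, P2- and KO. The ratio of Orai1 to Stim1 per exonic length stayed between 1.01 ± 0.0455 (SD, n = 3) in KO and 1.28 ± 0.0244 in P2+.

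The 3 IP3 receptor genes, which encode the calcium release channels of the endoplasmic reticulum, were not called in any of the 4 comparisons by edgeR's quasi-likelihood test or by DESeq2. At an unadjusted p under 0.05 from the same edgeR fits, Itpr3 between P2+ and P2- was the 1 case. Itpr1 (ENSMUSG00000030102; chromosome 6, 108213096 to 108551109) was at 43.6 to 53.1 CPM in all 12 libraries, Itpr2 (ENSMUSG00000030287; chromosome 6, 146108299 to 146502223) at 27.7 to 43.5 and Itpr3 (ENSMUSG00000042644; chromosome 17, 27057304 to 27122223) at 22.1 to 35.7. Between P2+ and P2- the log2 fold changes were -0.02 for Itpr1 (standard error 0.11, edgeR adjusted p = 0.913), -0.22 for Itpr2 (standard error 0.15, edgeR adjusted p = 0.304) and -0.32 for Itpr3 (standard error 0.14, edgeR adjusted p = 0.105). The P2+ and P2- replicate numbers pair, and with the replicate number as a block Itpr3 passed (log2 -0.32, edgeR adjusted p = 0.0356). That block also took the calls over all genes tested from 4762 to 6514. The Itpr3 ratio was lowest in pair 2 (0.682, against 0.901 and 0.823), and without replicate 2 of both fractions its unblocked log2 fold change was -0.19 (edgeR adjusted p = 0.374). Without P2+ replicate 2, Itpr2 passed against P2- (log2 -0.39, edgeR adjusted p = 0.0497; without P2- replicate 2 as well, log2 -0.44, adjusted p = 0.0247) and against WT (log2 -0.48, edgeR adjusted p = 0.0209). Summed per exonic length, the 3 receptors stood at 8.57 ± 0.178 RPKM (CPM per kilobase of exon; SD, n = 3) in WT, 8.69 ± 0.513 in P2-, 7.54 ± 0.702 in P2+ and 8.30 ± 0.910 in KO. Each contributed between 26.3% and 43.3% of that sum in every library. Itpr1 overlaps Gm44040 and Gm44101 and Itpr3 overlaps Itpr3os on the opposite strand.

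Over the comparisons, 3 of the 8 genes tested besides Kcnj5 rose in P2+ against P2- (Trpc6, Orai1 and Stim1) and 2 fell (Piezo1 and Kcnn4), where 20.1% of all genes tested rose and 17.0% fell. Against WT, none rose and 2 fell in P2+ (Piezo1 and Kcnn4), with 9.45% and 7.07% over all genes. Of the other alternatives, DESeq2 and the exact test each also called Trpc6 higher, and by the edgeR fit Trpc6 and Stim1 would count as higher there at an unadjusted p under 0.05. In P2-, 1 rose (Piezo1) and 1 fell (Trpc6) against WT, with 6.85% and 9.60% over all genes. In KO, 1 of 9 rose (Piezo1) and 2 fell (Kcnj5 and Trpc6), with 6.18% and 8.76% over all genes. With so few members these counts describe the named genes and nothing is read from them about the list. The median log2 fold change of the 8 between P2+ and P2- was -0.12, beside -0.02 over all genes tested. The comparisons with WT share the 3 WT libraries, and those of P2+ and P2- share theirs.

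**Figure D2:**
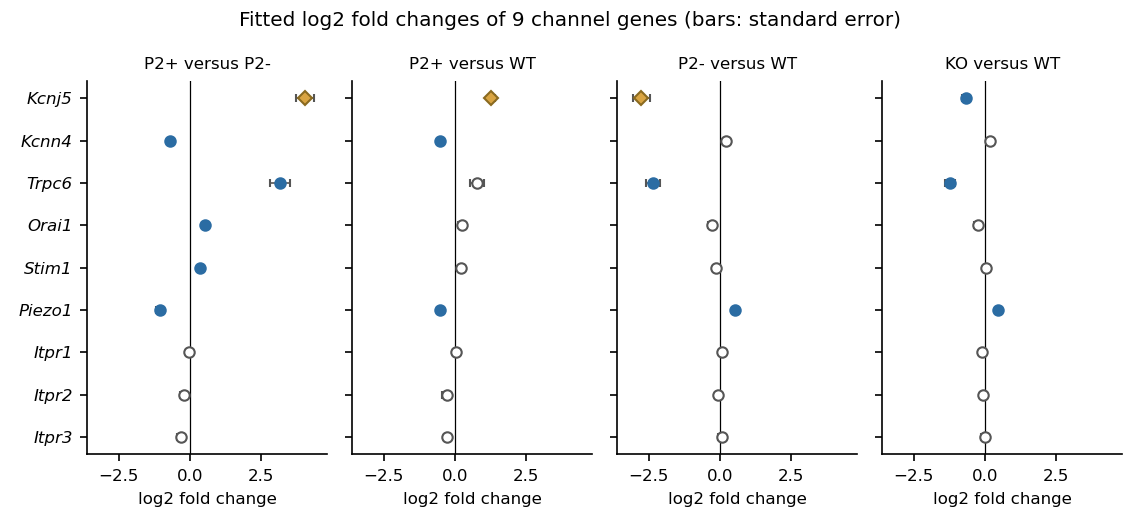
Fitted log2 fold change (horizontal axis) of each channel gene in the 4 comparisons, with bars for the standard error. Filled circles passed an adjusted p of 0.05, open circles did not, and diamonds mark Kcnj5 where no test applies. Trpc6 is at 3.14 and Piezo1 at -1.07 between P2+ and P2-, while the Itpr genes lie from -0.32 to -0.02 there.

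Levels of different genes were compared per exonic length. In P2+ PreMegEs Kcnj5 was the first of the 9 at 19.8 ± 3.18 RPKM (SD, n = 3), followed by Orai1 at 16.2 ± 0.791, Kcnn4 at 13.9 ± 0.676, Stim1 at 12.7 ± 0.425, Piezo1 at 10.5 ± 1.40 and Trpc6 at 5.75 ± 2.42. These 6 did not overlap their neighbours in the order. In P2- cells Kcnj5 had rank 8 at 1.19 ± 0.642 RPKM, with Trpc6 last at 0.650 ± 0.218, below the 3 Itpr genes. There Kcnn4 at 23.1 ± 0.801 and Piezo1 at 22.2 ± 1.89 led and overlapped. In WT Kcnn4 led at 19.9 ± 1.35, and Piezo1 at 15.3 ± 0.504 and Orai1 at 13.7 followed and overlapped. In KO Kcnn4 at 22.4 ± 1.26 and Piezo1 at 21.3 ± 2.45 led and overlapped. Kcnj5 had rank 5 in both, at 8.21 ± 0.995 in WT and 5.25 ± 1.17 in KO.

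**Figure D3:**
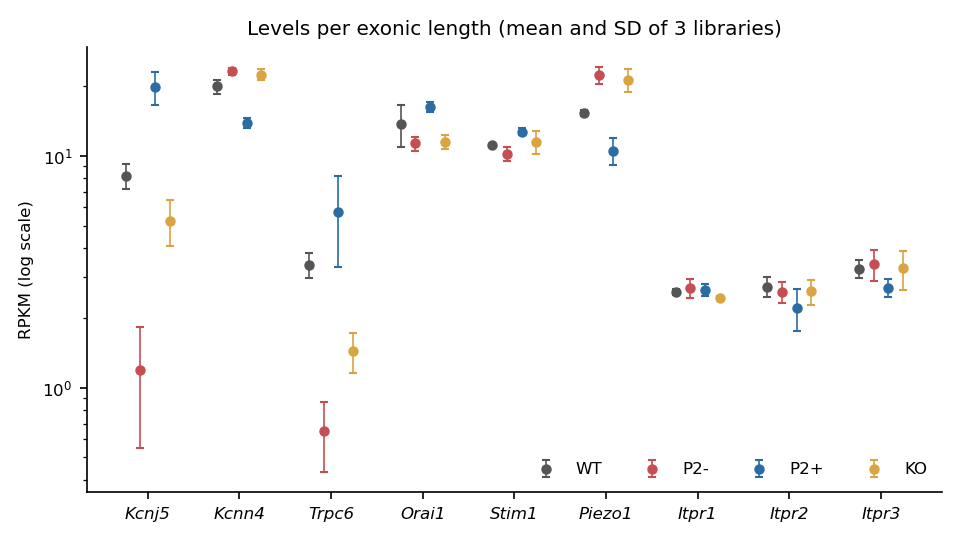
RPKM per exonic length (vertical axis, log scale) of the 9 channel genes by group, with points for the mean and bars for the SD of 3 libraries. Kcnj5 spans 1.19 in P2- to 19.8 in P2+, whereas each Itpr gene stays between 2.21 and 3.40 in all groups.

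Other potassium channel genes were examined through a list of 92 genes whose symbols start with Kcn, of which 59 had at most 3 counts in every library. Kcnj3, Kcnj6 and Kcnj9, which encode the other G protein-gated inward rectifier subunits, were among these 59, so that Kcnj5 was the one GIRK gene above that floor. Besides Kcnj5, 14 genes of the list were tested between P2+ and P2-, of which 6 rose and 4 fell, beside 20.1% and 17.0% over all genes. For 2 of the 6, Kcnk12 and Kcnip3, no P2- library reached 1 CPM, so they passed the filter through P2+ and had to differ. Kcnk12, a gene of the 2-pore domain family, had 0.668 ± 0.257 CPM (SD, n = 3) in P2- and 8.19 ± 1.47 in P2+, given without a test. Kcnk6 of the same family rose from 1.77 ± 0.659 to 13.4 ± 2.43 CPM (log2 2.93, edgeR adjusted p = 1.19e-04). Kcng2, a modulatory voltage-gated subunit, fell from 63.4 ± 6.04 to 6.31 ± 1.19 (log2 -3.31, edgeR adjusted p = 2.65e-06).

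Against WT, 4 of 15 potassium channel genes rose and 4 fell in P2+, beside 9.45% and 7.07% over all genes. In P2- 2 of 14 rose and 5 fell, beside 6.85% and 9.60%, and Kcnk12 was among the 5 through WT alone, where it had 4.40 ± 1.37 CPM. In KO 1 of 14 rose and 6 fell, beside 6.18% and 8.76%, with Kcnj5 counted. Kcnc1, a Shaw-type voltage-gated subunit, had 45.2 ± 4.43 CPM (SD, n = 3) in WT but 7.04 ± 1.21 in P2+, 4.75 ± 0.883 in P2- and 2.41 ± 0.280 in KO. It thus fell in each of the other 3 groups (log2 -2.68, -3.24 and -4.24, edgeR adjusted p = 3.60e-06, 8.63e-06 and 1.07e-11), and none of the 8 members tested was called lower in all 3. These 3 groups come from modified lines, and the line and the Runx1 allele cannot be told apart here. Kcng2 rose in P2- (log2 0.60, edgeR adjusted p = 7.72e-03) and KO (log2 0.59, edgeR adjusted p = 7.49e-04) and fell in P2+ (log2 -2.72, edgeR adjusted p = 6.84e-06), the directions of Piezo1. Kcnq5, a KCNQ-type voltage-gated subunit, fell in KO from 17.4 ± 1.87 to 6.85 ± 2.68 CPM (log2 -1.35, edgeR adjusted p = 3.67e-04). Kcnk6 rose in P2+ (log2 1.68, edgeR adjusted p = 1.92e-03).

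**Figure D4:**
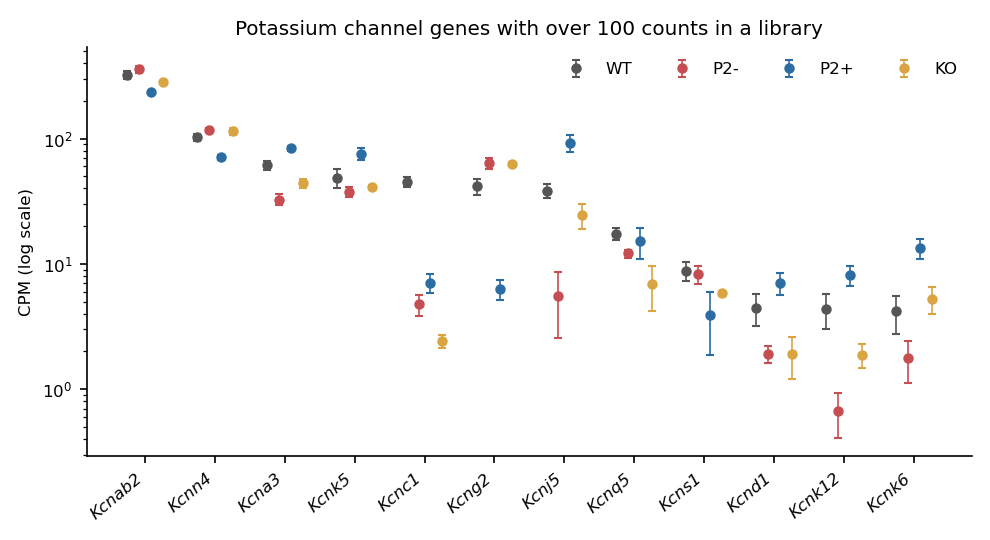
CPM (vertical axis, log scale) of the 12 potassium channel genes with over 100 counts in a library, by group, with points for the mean and bars for the SD of 3 libraries. Kcnj5, Kcnk12 and Kcnk6 are highest in P2+, Kcng2 is lowest there at 6.31, and Kcnc1 is high in WT alone at 45.2.

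The genes that make and remove IP3 act upstream of the Itpr receptors. Of 11 tested, 9 rose in P2+ against P2-, beside 20.1% over all genes, with a median log2 fold change of 0.61 beside -0.02 over all genes. Plcg2, a phospholipase C activated by tyrosine kinases, rose from 22.6 ± 2.72 to 78.8 ± 5.36 CPM (SD, n = 3; log2 1.81, edgeR adjusted p = 9.29e-06), and Plcb1, a G protein-activated one, from 1.38 ± 0.515 to 7.30 ± 2.61 (log2 2.39, edgeR adjusted p = 1.23e-03). Against WT, 3 of 11 rose in P2+, 4 fell in P2- and 2 fell in KO, beside 9.45%, 9.60% and 8.76% over all genes. Plcg2 was among them each time, with log2 fold changes of 0.73, -1.07 and -0.61. Inpp1, an inositol phosphate phosphatase, rose in P2+ (log2 0.50) and fell in P2- (log2 -0.98, edgeR adjusted p = 6.53e-04) and in KO (log2 -0.43, edgeR adjusted p = 0.0121).

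Of 14 genes for calcium release and pumps tested, the Itpr genes included, 4 rose and 1 fell in P2+ against P2- (28.6% and 7.14%, beside 20.1% and 17.0% over all genes). Atp2a3, the SERCA3 pump that refills the store, rose from 142 ± 11.1 to 667 ± 108 CPM (SD, n = 3; log2 2.25, edgeR adjusted p = 4.96e-06), and had 379.7 ± 10.5 in WT and 264 ± 9.90 in KO. Mrvi1, the IP3 receptor-associated substrate of cGMP kinase, rose from 1.94 ± 1.30 to 17.4 ± 8.63 (log2 3.13, edgeR adjusted p = 1.69e-03). Tpcn1, an endolysosomal channel gene, fell from 113 ± 3.81 to 78.4 ± 2.01 (log2 -0.52, edgeR adjusted p = 4.60e-04). In KO against WT, Atp2a3 (log2 -0.53, edgeR adjusted p = 6.21e-06), Atp2b4 (log2 -0.53, edgeR adjusted p = 6.82e-06) and Mrvi1 (log2 -1.07, edgeR adjusted p = 7.69e-04) fell, 3 of 15 beside 8.76% over all genes. Of 9 genes tested in the mitochondrial calcium uniporter list, 1 rose and 1 fell in P2+ against P2- (11.1% each). Against WT, 1 of 9 rose in P2+ and 1 in P2-, beside 9.45% and 6.85% over all genes. In KO 0 of 9 were called by edgeR or DESeq2, beside 6.18% higher and 8.76% lower.

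The store-operated list held 8 tested genes between the fractions, of which 4 rose and 1 fell, beside 20.1% and 17.0% over all genes. Besides Orai1 and Stim1, Tmem110 (STIMATE, a STIM1 partner) rose from 15.0 ± 1.25 to 26.5 ± 3.03 CPM (SD, n = 3; log2 0.84, edgeR adjusted p = 1.84e-03) and Tmem66 (SARAF, which switches STIM1 off) from 82.8 ± 10.8 to 124 ± 11.5 (log2 0.60, edgeR adjusted p = 3.03e-03). Orai3, a paralogue of Orai1, fell from 137 ± 5.69 to 114 ± 2.79 (log2 -0.25, edgeR adjusted p = 0.0179). Against WT, 0 of 9 were called in P2+ by edgeR's quasi-likelihood test (3 before adjustment, 0 by DESeq2), beside 9.45% higher and 7.07% lower over all genes. In P2- 2 of 8 fell, or 1 of 8 without replicate 2 of P2-, and in KO 1 of 8 (Tmem66, log2 -0.36, edgeR adjusted p = 1.70e-03), beside 9.60% and 8.76%.

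Of 8 TRP channel genes tested between P2+ and P2-, 4 rose, beside 20.1% over all genes. Next to Trpc6 these included Trpm4, a calcium-activated monovalent cation channel gene, which rose from 1.43 ± 0.246 to 5.70 ± 0.989 CPM (SD, n = 3; log2 1.99, edgeR adjusted p = 9.63e-04). Against WT, 0 of 9 were called in P2+ (edgeR; 6 before adjustment, and Trpc6 alone by DESeq2), or 3 without P2+ replicate 2 (Trpc6 and Trpm4 higher, Mcoln1 lower), beside 9.45% higher and 7.07% lower over all genes. In P2- 1 of 9 fell (11.1%, beside 9.60% over all genes), or 2 without P2- replicate 2. In KO, 4 of 9 fell, Trpc6 among them, beside 8.76% over all genes. Of these, Trpv4 (1.79 ± 0.680 CPM in WT and 0.357 ± 0.276 in KO) and Mcoln2 (2.75 ± 0.565 and 0.935 ± 0.406) passed the filter through WT, with 0 and 1 KO libraries at 1 CPM, and are given without a test. Among 8 P2X and voltage-gated calcium channel genes, 4 rose and 1 fell in P2+ against P2-, beside 20.1% and 17.0% over all genes. P2rx1, the ATP-gated channel of platelets, rose from 9.07 ± 3.76 to 55.3 ± 9.98 CPM (log2 2.61, edgeR adjusted p = 1.38e-04), Cacnb2 rose from 2.26 ± 0.853 to 11.4 ± 3.43 (log2 2.33, edgeR adjusted p = 8.94e-04), and Cacna1d fell from 10.5 ± 1.18 to 2.14 ± 1.62 (log2 -2.26, edgeR adjusted p = 3.54e-03). Against WT, 2 of 9 rose and 1 fell in P2+, beside 9.45% and 7.07% over all genes. In P2- 2 of 8 fell, and in KO 1 of 8 (Cacnb2, log2 -1.64, edgeR adjusted p = 3.42e-04), beside 9.60% and 8.76%.

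Downstream of calcium, 4 of 13 calcineurin and NFAT genes rose and 2 fell in P2+ against P2- (30.8% and 15.4%, beside 20.1% and 17.0% over all genes). Nfatc2, a calcineurin-dependent transcription factor, rose from 4.67 ± 0.710 to 23.5 ± 1.31 CPM (SD, n = 3; log2 2.34, edgeR adjusted p = 1.67e-05) and fell in KO from 14.3 ± 1.45 to 8.08 ± 1.61 (log2 -0.83, edgeR adjusted p = 4.73e-03), where it was the 1 gene of 13 called (7.69%, beside 8.76% over all genes). Rcan1, a calcineurin inhibitor, fell from 29.7 ± 1.34 to 22.2 ± 2.68 in P2+ against P2- (log2 -0.41, edgeR adjusted p = 0.0307), a call lost without replicate 2 of both fractions (log2 -0.34, edgeR adjusted p = 0.0793).

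Genes for red cell volume, to which Piezo1 and Kcnn4 belong, numbered 16 tested, of which 2 rose and 6 fell in P2+ against P2-, beside 20.1% and 17.0% over all genes. Atp1b2, a beta subunit of the sodium-potassium pump, fell from 771 ± 24.5 to 23.9 ± 8.79 CPM (SD, n = 3; log2 -5.00, edgeR adjusted p = 4.05e-06), while Lrrc8b, a subunit of volume-regulated anion channels, rose (log2 0.80, edgeR adjusted p = 2.07e-04). Against WT, 1 of 16 rose and 4 fell in P2+, beside 9.45% and 7.07% over all genes. In P2- 5 rose against WT, beside 6.85% over all genes, with Atp1b2 at log2 0.87 (edgeR adjusted p = 3.02e-04) and Slc12a4, a potassium-chloride cotransporter, at log2 0.98 (edgeR adjusted p = 6.15e-03). In KO 4 rose and 2 fell, beside 6.18% and 8.76%, with Slc12a4 from 7.35 ± 1.35 to 20.4 ± 2.13 CPM (log2 1.47, edgeR adjusted p = 1.28e-05) and Atp1b2 from 422 ± 57.8 to 615 ± 81.6 (log2 0.54, edgeR adjusted p = 7.99e-04), and with Slc12a7 (log2 -0.44) and Slc12a2 (log2 -0.39) lower. Tmem63b, the other mechanosensitive channel gene called in any comparison, fell in P2+ against WT (log2 -0.75, edgeR adjusted p = 0.0421).

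Kcnj5 lies between Arhgap32 and Kcnj1 on chromosome 9, with Fli1 beyond Kcnj1. Of the 11 other genes of the table that start within 500 kb of its start, 4 passed the filter, and distances below are between starts. Fli1, an Ets factor of the megakaryocyte lineage which starts 199 kb away, had 265 ± 12.4 CPM (SD, n = 3) in WT, 107 ± 18.3 in P2-, 406 ± 44.9 in P2+ and 169 ± 12.5 in KO. It rose in P2+ against P2- (log2 1.93, standard error 0.13, edgeR adjusted p = 1.32e-05) and against WT (log2 0.62, edgeR adjusted p = 1.12e-03), and fell in P2- (log2 -1.30, edgeR adjusted p = 6.39e-05) and in KO (log2 -0.65, standard error 0.07, edgeR adjusted p = 3.18e-06). Ets1, 292 kb away and also an Ets factor, moved in the same 4 directions (log2 2.26, 0.67, -1.57 and -1.27), as did Arhgap32, a GTPase-activating protein gene 228 kb away on the other side (log2 2.08, 0.78, -1.29 and -0.76), all past the test. Over all genes tested, 20.1% rose in P2+ against P2- and 9.45% against WT, while 9.60% fell in P2- and 8.76% in KO. Kcnj1, the gene next to Kcnj5 at 28.1 kb and also an inward rectifier, had at most 6 counts in a library, and the pseudogene Gm3756 passed no test.

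**Figure D5:**
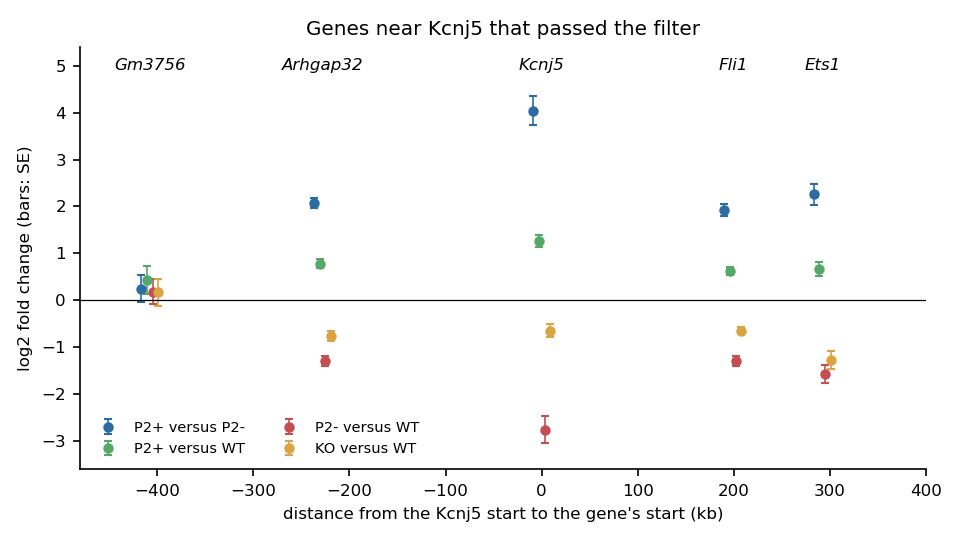
Log2 fold change (vertical axis, bars for the standard error) of Kcnj5 and the 4 genes near it that passed the filter, against the distance in kb between their start and that of Kcnj5 (horizontal axis, points shifted sideways by comparison). Fli1, Ets1 and Arhgap32 lie above 0 in both P2+ comparisons and below 0 in P2- and KO, while Gm3756 stays near 0.

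The genes whose log2 CPM followed Kcnj5 most closely were named from Pearson's r over the 12 libraries, a description among 13272 genes in which the libraries share their groups and the spread between groups sets most of the value. The first 8 were Slc35d3 (r = 0.992), Ptgs1 (0.988), Pros1 (0.988), Plek (0.987), Gucy1b3 (0.987), Sdpr (0.987), F2rl2 (0.987) and Cd180 (0.985). Ptgs1, the cyclooxygenase that starts thromboxane synthesis, had 35.4 ± 2.04 CPM (SD, n = 3) in WT, 8.44 ± 1.29 in P2-, 84.8 ± 6.51 in P2+ and 27.6 ± 3.25 in KO. Plek, the main protein kinase C substrate of platelets, had 578 ± 50.5, 121 ± 29.7, 1067 ± 144 and 311 ± 45.4 CPM in the same order. F2rl2, which encodes the thrombin receptor PAR3, had 69.5 ± 13.9, 11.9 ± 2.47, 122 ± 27.3 and 39.1 ± 8.04. Among the channel genes Trpc6 was nearest (r = 0.949, rank 113), then Stim1 (0.788) and Orai1 (0.775), while Piezo1 (-0.850) and Kcnn4 (-0.817) ran opposite and Itpr1 (-0.0886) was near 0. Fli1 stood at rank 23 (r = 0.975) and Runx1 at rank 66 (r = 0.959).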

How the data were processed

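PreMegEs (Lin- Sca1- cKit+ CD41- CD16/32- Endoglin- CD150+) were sorted and sequenced in 4 groups of 3 libraries. Strand-specific poly(A) libraries were read from both ends, and the authors mapped the reads to GRCm38 with Bowtie2 and counted them per Ensembl gene with featureCounts; the deposited values are these whole-number counts, with no normalization. The strand setting and the treatment of reads with several alignments are not given in the sources used here, and the submitters' processing notes name Bowtie2, SAMtools 0.1.19, R 3.1.0 and edgeR 3.8.5. Besides the members named above, list genes also overlap exons on the opposite strand, among them Kcng2, Kcnq5, Mrvi1, Plcb1, Cacna1d, Cacnb2, Slc12a4 and Tmem63b. No columns other than the 12 libraries and the gene names were used.

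Genes reaching 1 CPM in 3 or more of the 6 libraries compared were fitted with edgeR 4.0.16 (TMM, quasi-likelihood test, R 4.3.3) in pairwise fits, and p-values were adjusted by Benjamini-Hochberg over all genes tested, called under 0.05. The study used the exact test of edgeR with a minimum of 2-fold. RPKM used exonic lengths from GENCODE vM21 (GRCm38), in which 40254 of 41128 genes were found. The code was tested on simulated data. The floor behind a count of 0 was taken as 3 counts, 0.207 to 0.288 CPM, for counting error only. The study's methods give 3 pooled mice per library and do not describe the KO libraries. Whether same-numbered P2- and P2+ libraries came from the same mice is not stated, so p-values measure the spread between these libraries.

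Replicate numbers of P2+ and P2- paired: deviations from the group means correlated at 0.386, 0.572 and 0.405 for replicates 1, 2 and 3. The counts for the lists, the neighbours and all genes tested come from fits without the replicate block. The members and gene lists were chosen with earlier results of these data known. Named genes were the 9 members, Runx1, up to 2 called genes in each direction per list and comparison with the largest change, genes that start within 500 kb of Kcnj5 and passed the filter, and the 8 genes with the highest r with Kcnj5 (log2 CPM, prior count 2), and a subset of these is described; some genes that the rule names are not reported here. Alternatives were DESeq2 1.42.0, its size factors in edgeR, no filter, the exact test, all 12 libraries in a single fit, the replicate block, a 2-fold minimum, CPM without TMM and leaving out libraries (for the lists and neighbours, replicate 2 of P2- and P2+ only, added after seeing the data).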

Additional observations from a re-analysis of the deposited data

How the results depend on the processing

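Of 55 recomputed counts of called channel genes, 6 moved by more than 1.5 times. A 2-fold minimum took the counts from 5 to 2 (Trpc6 and Piezo1) in P2+ against P2-, from 2 to 0 in P2+ against WT, from 2 to 1 (Trpc6) in P2- against WT and from 3 to 1 (Trpc6) in KO against WT, through the stricter rule itself. Leaving out P2+ replicate 2, alone or with P2- replicate 2, took P2+ against WT from 2 to 4 called genes (Kcnn4, Trpc6, Piezo1 and Itpr2); over all libraries left out in turn the count there ran from 2 to 4, in P2+ against P2- from 5 to 6, and stayed at 2 in P2- against WT and at 3 in KO against WT. With the replicate block the counts were 6, 2, 2 and 3 for P2+ against P2-, P2+ against WT, P2- against WT and KO against WT. The added call was Itpr3, and the block changed no other call of these genes. Over all genes tested, the block took the calls from 4762 to 6514, 2138 to 1901, 2101 to 1469 and 1910 to 2091 in that order. Outside the pair P2+ and P2- the replicate numbers do not pair the libraries (correlations of -0.0854 to 0.159).

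Of 459 recomputed log2 fold changes, 430 kept their direction and their side of the threshold, 10 newly passed and 1 no longer passed (Kcnj5 in KO against WT with all 12 libraries, adjusted p = 0.104 from edgeR); the cause was not tested. The 16 that changed sign belonged to genes not called in that comparison. In KO against WT, Itpr3 had log2 fold changes of 1.22e-03 with median ratio size factors, 2.69e-03 without the filter, 1.15e-03 with DESeq2 and 0.01 with all 12 libraries, and -0.12 to 0.15 with libraries left out, where Stim1 ran from -0.07 to 0.09 and Itpr2 from -0.16 to 0.03. Itpr1 ran from -0.10 to 0.04 in P2+ against P2- and from -0.01 to 0.14 in P2- against WT, where Itpr3 ran from -0.07 to 0.14. Without P2- replicate 3 Kcnj5 was at 4.60 against P2- and -3.33 for P2- against WT, and its leave-one-out ranges were 3.83 to 4.60 and -3.33 to -2.55. All 36 group levels moved by less than 1 SD without TMM. Genes with few counts, such as Trpc6 in P2-, carry the widest errors.

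Without replicate 2 of P2- and P2+, an alternative for the lists chosen after seeing the data, 30 of 33 list and neighbour counts stayed within 1.5 times. The exceptions were the TRP list, from 0 to 3 called in P2+ and from 1 to 2 in P2- against WT, and the store-operated list, from 2 to 1 in P2- against WT. Of the tests printed in the report, that of Rcan1 between the fractions was lost. Within the counts, calls were also lost for other genes, among them Tmem110 (edgeR adjusted p from 0.0434 to 0.0660) and Plcb1 (from 0.0404 to 0.0646) in P2- against WT. Fli1, Ets1 and Arhgap32 stayed called in all 3 comparisons.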
